A study of Mus musculus with 6 samples.

Results

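Pdk4 and 8 further genes of the switch from glucose to fat as fuel in fasting (Pdk1, Pdk2, Angptl4, Cpt1a, Ucp2, Ucp3, Pck1 and Ppara) were followed in fat of NOD mice, which become diabetic through autoimmunity. A member is a gene whose symbol is on this list of 9, and where it had several probe sets, the brightest on average over the 6 arrays stood for it. Of the 9 genes 8 had probe sets annotated with their symbol alone, 19 in number among the 45101 on the array, and Ucp2 was not analysed here. All 8 passed the filter on weak signal, as did 13040 genes in all. RNA came from fat in 3 groups of 2 arrays: NOD mice given alpha-1-antitrypsin (AAT), which inhibits proteases in serum, that had stably reverted and were independent of insulin; NOD mice whose blood glucose exceeded 300 mg/dl on 3 consecutive days, called diabetic; and normoglycemic female NOD mice aged 10 weeks. The labels give no dose, no fat depot, no feeding state, and no age or sex for the AAT-treated and diabetic mice. Nor do they tell if 2 arrays of one group are different mice, so the p-values reflect the spread among these arrays alone, and that spread can be technical.

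In fasting, cells spare glucose and burn fat. Pyruvate dehydrogenase kinases phosphorylate and switch off the enzyme complex that turns pyruvate into acetyl-CoA, carnitine palmitoyltransferase carries fatty acids into mitochondria, and FoxO factors, which insulin holds back, together with the nuclear receptor PPAR alpha raise transcription of several of these genes. In fat cells the cytosolic enzyme encoded by Pck1 also makes glycerol phosphate from pyruvate, so that fatty acids can be re-esterified to triglyceride.

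Values are signals in arbitrary units, scaled so that the trimmed mean of every array was about 500. Differences were taken on the scale log2(signal + 75), which understates those of weak genes, and were tested with limma over all 13040 genes. No member passed an adjusted p of 0.05 in any comparison, nor did any other gene (0%). At an unadjusted p under 0.05, diabetic against normoglycemic fat gave 2 of 8 members, both lower, beside 9.9% of all genes (5.28% higher and 4.62% lower). For AAT-treated against diabetic fat there were also 2 of 8, both higher, beside 4.77% of all genes (2.94% higher and 1.83% lower). For AAT-treated against normoglycemic fat there were 2 of 8, 1 higher and 1 lower, beside 5.12% (3.4% higher and 1.72% lower). The members were chosen with earlier results of these data known, so these shares are a description and no test of the set. Each pair of comparisons shares the arrays of a group. An exact permutation test of 2 arrays against 2 cannot go below p = 0.333, so none was used.

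The arrays were uneven in quality. Beta-actin control probe sets had a 3' over 5' signal ratio of 9.08 and 5.87 in AAT-treated, 15.2 and 15.5 in diabetic, and 3.63 and 4.3 in normoglycemic fat. The mean signal of the spiked-in hybridisation controls was 86286 on AAT-treated 2 and 128547 on normoglycemic 1, against 25159 to 48494 on the other 4 arrays. Of 9 adipocyte markers 7 had a probe set and all 7 lay above the signal filter, among them Adipoq (adiponectin), Fabp4 and Cidec. Their summed signal was 192604 and 305846 in AAT-treated, 188690 and 313376 in diabetic, and 477953 and 290491 in normoglycemic fat. All 7 were lower in AAT-treated against normoglycemic fat, 3 without overlap, with a median log2 difference of −0.55 beside −0.03 over all genes. In each of the other comparisons 3 were higher and 4 lower. Ucp1, which defines brown fat, was between 4.72 and 124 on the 6 arrays, under the filter.

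Pdk4 was lowest in diabetic and highest in AAT-treated fat, and had the largest of the members' differences from diabetic fat on the probe sets that stand for the genes. Pdk4 encodes the dehydrogenase kinase isoform best known for induction by fasting, fatty acids and glucocorticoids and for repression by insulin. Its signal was 10568 and 7964 in AAT-treated fat, 1828 and 1732 in diabetic fat, and 4986 and 4492 in normoglycemic fat. Every diabetic array lay below every normoglycemic one and every AAT-treated array lay above both other groups, so no groups overlapped. The mean was 9266 ± 1841 for AAT-treated fat, 1780 ± 68.2 for diabetic fat and 4739 ± 349 for normoglycemic fat (SD, n = 2 each).

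**Figure D1:**
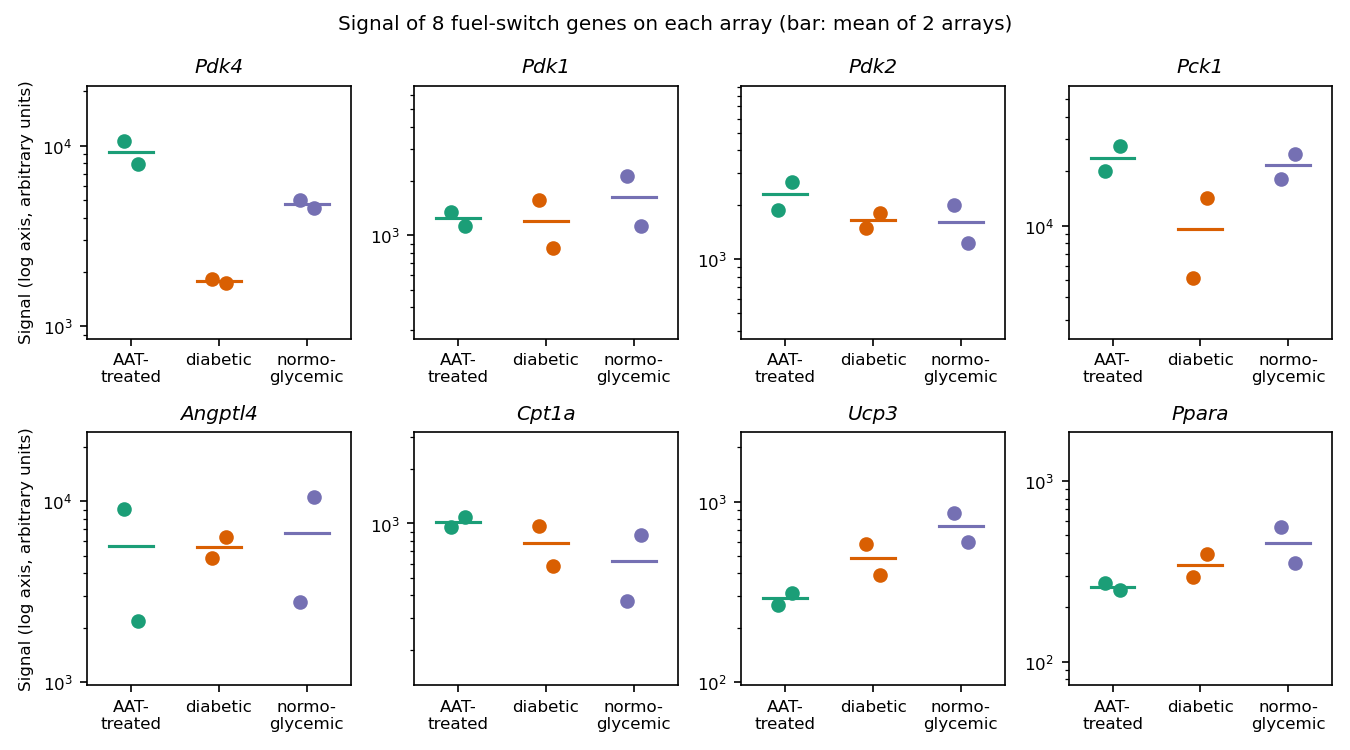
Signal of the 8 measured genes on each array. The vertical axis is the signal in arbitrary units on a log scale that covers the same fold range in every panel, points are single arrays, and bars are the mean of 2 arrays. Pdk4 sits at 1828 and 1732 on the diabetic arrays, below all other arrays, and at 10568 and 7964 on the AAT-treated arrays.

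AAT-treated against diabetic fat differed in Pdk4 by 2.32 ± 0.32 on the log2 scale (SE, n = 2 arrays per group), a 4.99-fold higher level. By limma it ranked 3 of 13040 genes by p, with an adjusted p = 0.295. Diabetic against normoglycemic fat differed by −1.37 ± 0.32, a 2.59-fold lower level (limma, adjusted p = 0.459). AAT-treated against normoglycemic fat differed by 0.94 ± 0.32 (limma, adjusted p = 0.890). Each of these was past an unadjusted p of 0.05, here and in all 10 other settings that kept both arrays of each group compared. Without any 1 array the AAT-treated against diabetic difference stayed between 2.12 and 2.52 and the diabetic against normoglycemic one between −1.45 and −1.30. The AAT-treated against normoglycemic difference stayed between 0.74 and 1.15 and was not past an unadjusted p of 0.05 without AAT-treated 1, without normoglycemic 1 or without normoglycemic 2. Pdk4 has 1 probe set annotated with its symbol alone, so no other probe set was read to check it.

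Markers of several other cell types and a sign of RNA quality differed between the groups too, some in the order of Pdk4. All 10 smooth muscle markers lay above the signal filter and all 10 were higher in both AAT-treated arrays than in both diabetic ones. Their summed signal was 66883 and 102021 in AAT-treated, 16777 and 11199 in diabetic, and 8672 and 34447 in normoglycemic fat. All 10 were also higher in both AAT-treated arrays than in both normoglycemic ones. In diabetic against normoglycemic fat 9 were lower and 1 higher, with overlap of the groups for all 10. Of 13 skeletal muscle markers 5 lay above the filter, and their summed signal over all 13 was 6983 and 1904 in AAT-treated, 2239 and 3045 in diabetic, and 3657 and 3457 in normoglycemic fat. Lymphocyte markers, 2 of 8 above the filter, summed to 20325 and 5018 in AAT-treated, 885 and 3102 in diabetic, and 966 and 923 in normoglycemic fat. Most of the AAT-treated sums was the immunoglobulin gene Ighm alone, at 19419 and 3925. Cd8a, the other marker above the filter, read 373 and 395 in AAT-treated and 149 and 339 in diabetic fat. Cd3e, under the filter, read 68.6 and 67.4 in AAT-treated and 94.2 and 187 in diabetic fat, the other direction. Erythroid markers, 3 of 6 above the filter, summed to 8810 and 1697 in AAT-treated, 1070 and 1266 in diabetic, and 3982 and 9234 in normoglycemic fat. All 3 were lower in diabetic against normoglycemic fat without overlap (median −2.64), and all 3 were higher in AAT-treated against diabetic fat, 2 without overlap (median 1.65). Like Pdk4 they were thus lowest in diabetic fat, and against normoglycemic fat the AAT-treated arrays had a median of −1.11. Mesothelium markers, 4 of 4 above the filter, summed to 4741 and 7115 in AAT-treated, 3396 and 3117 in diabetic, and 3374 and 2389 in normoglycemic fat. Macrophage markers, 11 of 12 above the filter, summed to 18603 and 13165 in AAT-treated, 15853 and 32666 in diabetic, and 9872 and 9086 in normoglycemic fat. The arrays with the lowest Pdk4, the diabetic ones, were also those with the highest beta-actin ratio, 15.2 and 15.5. The part of these markers and of RNA quality in the Pdk4 and Pck1 results was not tested. In such bulk tissue fewer cells of a type and less RNA per cell cannot be told apart.

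The promoter of Pdk4 is shown because this gene and Pck1 shared low signals in diabetic fat. RefSeq places the 300 bases from 250 before to 50 after the transcription start at chr6:5496229-5496528 (GRCm38.p6, minus strand). They are printed 5′ to 3′ in the sense of the gene, and capitals mark the single match to a CCAAT box, which reads ATTGG on this strand.
Pdk4: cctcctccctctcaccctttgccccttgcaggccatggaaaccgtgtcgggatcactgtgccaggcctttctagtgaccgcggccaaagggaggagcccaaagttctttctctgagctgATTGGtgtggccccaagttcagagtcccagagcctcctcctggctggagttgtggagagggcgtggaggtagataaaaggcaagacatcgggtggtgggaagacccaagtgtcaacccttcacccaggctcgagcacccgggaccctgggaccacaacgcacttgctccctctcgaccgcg
Of 8 motifs searched on both strands, this window held the CCAAT box alone (CCAAT or ATTGG, in 37.4% of 32851 RefSeq promoter windows of the same length), with its first base 131 before the start. The other motifs were the PPAR/RXR direct repeat, 2 copies of AGGTCA with 1 base between them (0.0396% of windows), the nuclear receptor hexamer AGGTCA, which lies inside that repeat (16.3%), the FoxO core GTAAACA (3.65%), and the glucocorticoid receptor hexamer AGAACA (19.0%). The list ended with the cAMP response element hexamer ACGTCA (7.51%), the C/EBP core TTGCGCAA (0.183%) and the TATA box TATAAA (13.6%). A match is a description of letters in this window and no match says only that they are not there.

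Pck1, the cytosolic phosphoenolpyruvate carboxykinase of glyceroneogenesis, was also lower in diabetic fat. Its signal was 19920 and 27500 in AAT-treated, 5102 and 14139 in diabetic, and 18205 and 24811 in normoglycemic fat. Both diabetic arrays lay below the other 4, with diabetic 1 far lower than diabetic 2, and the AAT-treated and normoglycemic arrays overlapped. Diabetic against normoglycemic fat differed by −1.31 ± 0.52 (limma, adjusted p = 0.491). The AAT-treated arrays differed from the diabetic ones by 1.45 ± 0.52 (limma, adjusted p = 0.961) and from the normoglycemic ones by 0.14 ± 0.52. The first 2 of these differences were past an unadjusted p of 0.05.

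The Pck1 differences depended on single arrays, most of all on diabetic 1. Without it the diabetic against normoglycemic difference was −0.59 and the AAT-treated against diabetic one 0.72, neither past an unadjusted p of 0.05; without diabetic 2 they were −2.04 and 2.18. With the hybridisation-control signal in the model the diabetic against normoglycemic difference was −1.02, also not past it. Nor was it past that threshold without normoglycemic 1 (−1.54) or normoglycemic 2 (−1.09), and the AAT-treated against diabetic difference was not without AAT-treated 2 (1.22). A second Pck1 probe set above the filter, of lower mean signal, separated the groups more widely. It read 1935 and 5712 in AAT-treated, 358 and 392 in diabetic, and 2263 and 3967 in normoglycemic fat. On it both diabetic arrays were low and close together. Its differences were −2.77 ± 0.49 for diabetic against normoglycemic fat and 2.92 ± 0.49 for AAT-treated against diabetic fat. The adjusted limma p over all 34945 probe sets with 1 gene symbol was 0.501 for the first and 0.514 for the second. The remaining Pck1 probe set was under the filter, at 109 or less on every array.

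The Pck1 window carries the hexamer of the cAMP response element, through which glucagon and adrenaline are known to raise this gene. RefSeq places it at chr2:173152823-173153122 (GRCm38.p6, plus strand). Capitals mark ACGTCA, the single match among the 8 motifs, whose first base is 91 before the start.
Pck1: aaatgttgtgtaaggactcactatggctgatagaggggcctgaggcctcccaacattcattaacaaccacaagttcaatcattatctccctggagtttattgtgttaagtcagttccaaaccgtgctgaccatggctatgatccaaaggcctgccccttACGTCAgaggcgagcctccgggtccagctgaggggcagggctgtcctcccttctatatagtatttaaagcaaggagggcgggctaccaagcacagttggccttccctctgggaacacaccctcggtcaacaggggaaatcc

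**Figure D2:**
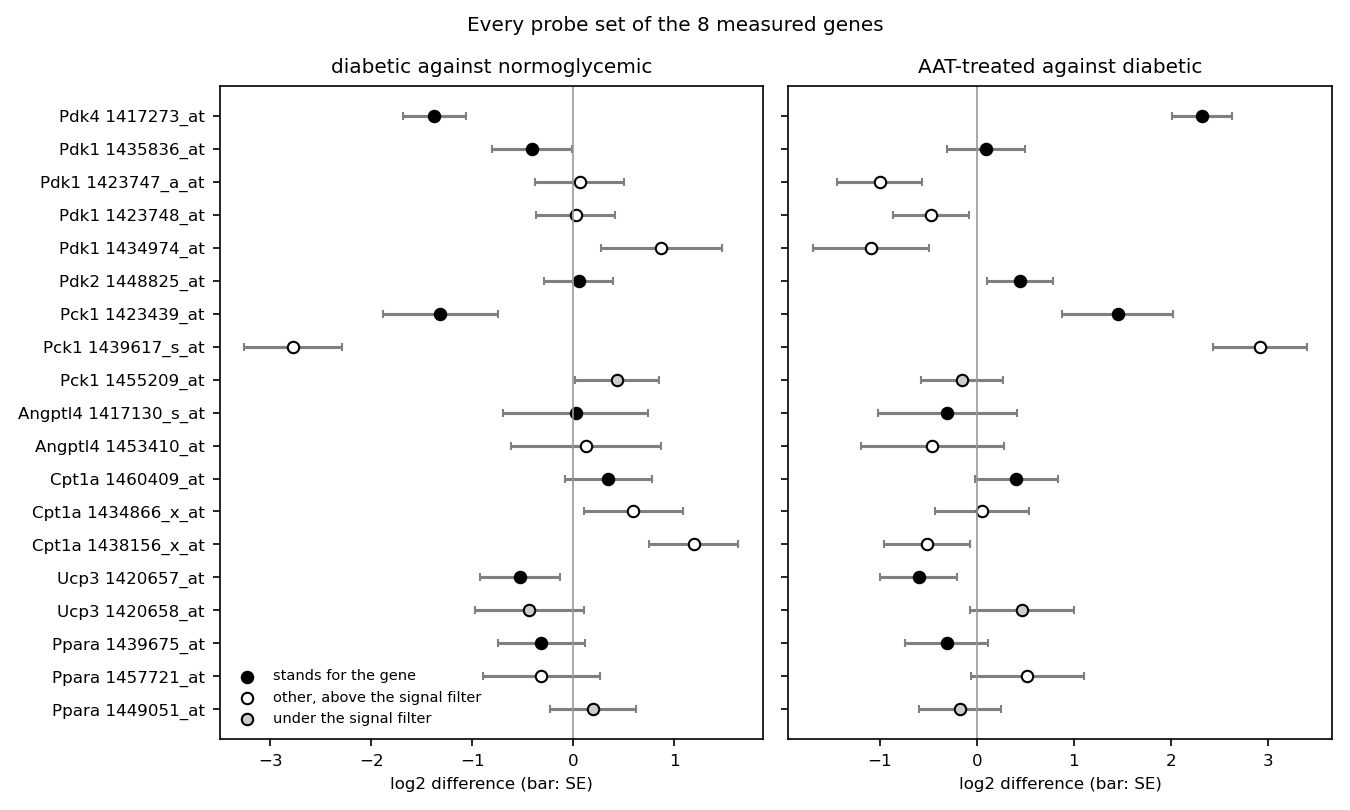
Log2 difference with its standard error for all 19 probe sets of the 8 measured genes, diabetic against normoglycemic on the left and AAT-treated against diabetic on the right. Filled points stand for the gene, open points are other probe sets above the signal filter, and grey points lie under it. Both Pck1 probe sets above the filter lie left of 0 on the left (−1.31 and −2.77) and right of 0 on the right, while the probe sets of Pdk1 scatter on both sides of 0.

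The other pyruvate dehydrogenase kinases had smaller differences, none at an unadjusted limma p under 0.05 on the probe sets that stand for them. Pdk1, the isoform raised by hypoxia, read 1353 and 1128 in AAT-treated, 1561 and 848 in diabetic, and 2124 and 1132 in normoglycemic fat. All 3 groups overlapped. Its differences were −0.41 ± 0.42 for diabetic against normoglycemic fat (95% interval −1.36 to 0.55) and 0.09 ± 0.42 for AAT-treated against diabetic fat (−0.86 to 1.05).

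The 4 Pdk1 probe sets, all above the filter, disagreed. For AAT-treated against diabetic fat the other 3 read −1.003 ± 0.44, −0.47 ± 0.39 and −1.09 ± 0.60, the opposite sign to the one that stands for the gene. The first of them was past an unadjusted limma p of 0.05 but not an adjusted one. It read 827 and 443 in AAT-treated fat against 1974 and 841 in diabetic fat. On each of the 3 the AAT-treated arrays lay below the diabetic ones. With the mean of the 4 probe sets the Pdk1 difference was −0.62.

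Pdk2, the broadly expressed isoform, read 1878 and 2685 in AAT-treated, 1480 and 1805 in diabetic, and 1996 and 1230 in normoglycemic fat. The lower AAT-treated array, at 1878, lay just above the higher diabetic one, at 1805, and the normoglycemic arrays spanned the diabetic ones. The difference was 0.44 ± 0.36 for AAT-treated against diabetic fat (95% interval −0.38 to 1.27) and 0.06 ± 0.36 for diabetic against normoglycemic fat (−0.77 to 0.88). AAT-treated against normoglycemic fat differed by 0.50 ± 0.36. Whether Pdk4 differed from Pdk1 or Pdk2 in its change was not tested.

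Cpt1a encodes the liver-type carnitine palmitoyltransferase that admits long-chain fatty acids to mitochondria. Its signal was 961 and 1090 in AAT-treated, 973 and 581 in diabetic, and 373 and 869 in normoglycemic fat. The AAT-treated arrays lay above both normoglycemic arrays, and normoglycemic 1, the array with the brightest hybridisation controls, was the lowest of all 6. AAT-treated against normoglycemic fat differed by 0.76 ± 0.43 (95% interval −0.23 to 1.74), and by 0.22 without normoglycemic 1. Against diabetic fat the AAT-treated arrays differed by 0.41 ± 0.43 and diabetic against normoglycemic fat by 0.35 ± 0.43. The other 2 probe sets gave 0.05 ± 0.49 and −0.51 ± 0.44 for AAT-treated against diabetic fat. They gave 0.60 ± 0.49 and 1.19 ± 0.44 for diabetic against normoglycemic fat, the same sign as the main one. The last of these differences was past an unadjusted limma p of 0.05 but not an adjusted one. That probe set read 694 and 727 in diabetic and 170 and 405 in normoglycemic fat, without overlap.

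Angptl4 encodes a secreted inhibitor of lipoprotein lipase that fasting raises in fat. Its arrays lay far apart within the AAT-treated and normoglycemic groups, with 9072 and 2182 in AAT-treated, 4844 and 6339 in diabetic, and 2774 and 10611 in normoglycemic fat. The low arrays were AAT-treated 2 and normoglycemic 1, which are also those with the brightest hybridisation controls, and all groups overlapped. The second Angptl4 probe set was lowest on the same arrays, at 63.1 on AAT-treated 2 and 153 on normoglycemic 1, against 282 to 542 on the rest. No comparison resolved a difference, with 0.03 ± 0.75 for diabetic against normoglycemic fat (95% interval −1.69 to 1.74) and −0.31 ± 0.75 for AAT-treated against diabetic fat (−2.02 to 1.41). With the hybridisation-control signal in the model they were −1.13 ± 0.54 and 0.08 ± 0.46. Endothelium markers, 5 of 5 above the filter, also had their lowest sums on AAT-treated 2 and normoglycemic 1, at 3107 and 1996. On the other arrays they summed to 4635 to 13938. The part of these markers in the Angptl4 values was not tested.

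On the probe sets that stand for the genes, Ucp3 and Ppara had their lowest means in AAT-treated fat, where Pdk4 had its highest. Ucp3, a mitochondrial carrier of muscle and brown fat that fatty acids induce, read 268 and 314 in AAT-treated, 582 and 391 in diabetic, and 870 and 597 in normoglycemic fat. No groups overlapped, though diabetic 1 and normoglycemic 2 were close. AAT-treated against normoglycemic fat differed by −1.13 ± 0.36 (limma, adjusted p = 0.890), past an unadjusted p of 0.05. Without any 1 array it lay between −1.37 and −0.88, and it was not past that threshold without AAT-treated 1 (−1.04) or normoglycemic 1 (−0.88). Against diabetic fat the AAT-treated arrays differed by −0.60 ± 0.36 and diabetic against normoglycemic fat by −0.53 ± 0.36. Diabetic against normoglycemic fat differed by −0.28 both without diabetic 2 and without normoglycemic 1, and AAT-treated against diabetic fat by −0.35 without diabetic 1. The second Ucp3 probe set was under the filter and differed by 0.03 ± 0.54 for AAT-treated against normoglycemic fat. For AAT-treated against diabetic fat it differed by 0.46 ± 0.54, the opposite sign. Brown fat markers, 6 of 10 above the filter, summed to 3699 and 2456 in AAT-treated, 5289 and 3142 in diabetic, and 4720 and 3281 in normoglycemic fat; their part in the Ucp3 values was not tested.

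The Ucp3 promoter window is printed because Ucp3, on the probe set that stands for it, was lowest in AAT-treated fat, where Pdk4 was highest. It lies at chr7:100472741-100473040 (GRCm38.p6, plus strand, RefSeq) and capitals mark AGGTCA, which occurs in it 149 and 44 bases before the start.
Ucp3: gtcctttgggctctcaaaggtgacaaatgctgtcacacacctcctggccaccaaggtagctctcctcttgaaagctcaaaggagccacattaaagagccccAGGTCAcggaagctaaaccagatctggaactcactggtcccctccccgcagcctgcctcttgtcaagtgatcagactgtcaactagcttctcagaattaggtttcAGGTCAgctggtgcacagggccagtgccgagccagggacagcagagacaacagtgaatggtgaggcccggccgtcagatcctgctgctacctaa
RefSeq windows were matched for 8 members, Ucp2 among them, with more than 1 window for Pdk1 and Pdk2. On either strand, AGGTCA was found in Ucp3 and Cpt1a, ACGTCA in Pck1, AGAACA in Pdk1, and the CCAAT box in Pdk4, Pdk2 and Cpt1a. The PPAR/RXR repeat, the FoxO core, the C/EBP core and the TATA box letters TATAAA were found in 0 of these 8 members. Other forms of the TATA box were not searched.

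Ppara, the fatty acid sensor that drives fasting transcription in liver, read 271 and 249 in AAT-treated, 294 and 394 in diabetic, and 555 and 351 in normoglycemic fat. The AAT-treated arrays were the lowest 2, and the diabetic and normoglycemic arrays overlapped. AAT-treated against normoglycemic fat differed by −0.63 ± 0.38 (95% interval −1.51 to 0.25). Against diabetic fat the AAT-treated arrays differed by −0.31 ± 0.38 and diabetic against normoglycemic fat by −0.32 ± 0.38. A second probe set above the filter read 321 and 327 in AAT-treated, 166 and 246 in diabetic, and 524 and 125 in normoglycemic fat. It gave 0.52 ± 0.58 for AAT-treated against diabetic fat, the opposite sign. For AAT-treated against normoglycemic fat it gave 0.20 ± 0.58, also the opposite sign. The remaining probe set was under the filter.

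**Figure D3:**
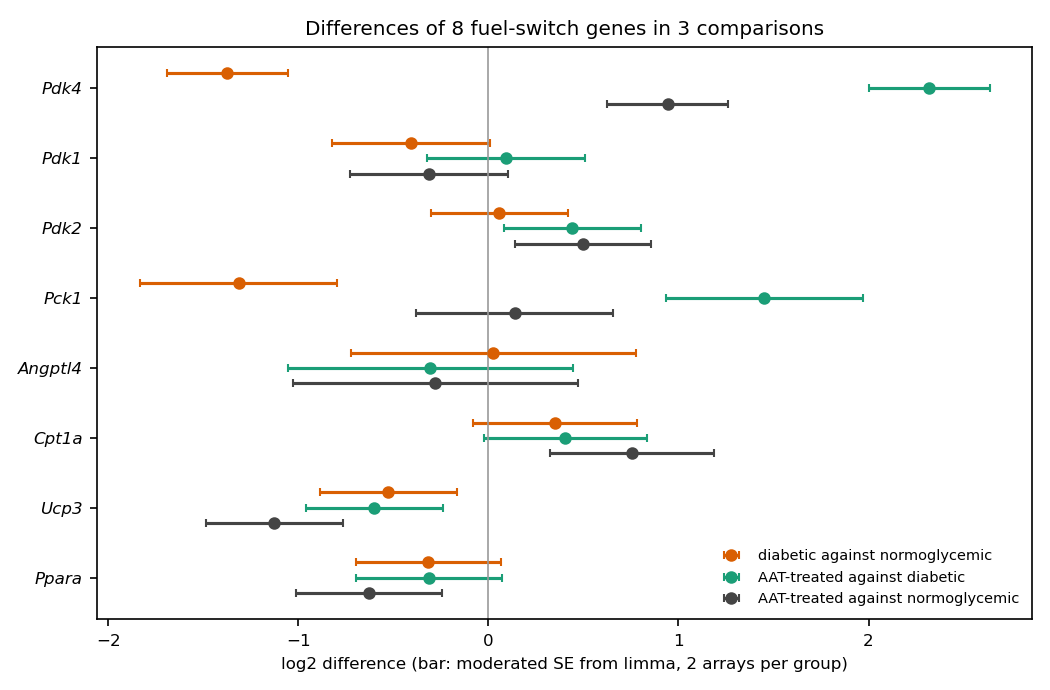
Log2 differences of the 8 measured genes in the 3 comparisons, with the moderated standard error from limma (2 arrays per group). Pdk4 and Pck1 lie left of 0 for diabetic against normoglycemic fat (−1.37 and −1.31) and right of it for AAT-treated against diabetic fat (2.32 and 1.45), and Ucp3 lies left of 0 in all 3.

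Across members, 3 were higher and 5 lower in diabetic against normoglycemic fat, with a median of −0.36 beside −0.06 over all 13040 genes. AAT-treated against diabetic fat had 5 higher and 3 lower, with a median of 0.25 beside 0.01. AAT-treated against normoglycemic fat had 4 higher and 4 lower, with a median of −0.07 beside −0.03. Groups did not overlap for 3 of 8 members in diabetic against normoglycemic fat, all 3 lower, where 44.7% of all genes did not (20.2% higher and 24.5% lower). In AAT-treated against diabetic fat they did not overlap for 5 of 8, 3 higher and 2 lower, beside 33.8% (17.9% higher and 15.9% lower). In AAT-treated against normoglycemic fat they did not overlap for 4 of 8, 2 higher and 2 lower, beside 32.1% (16.1% in each direction). The members thus did not share a direction in any comparison.

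Pathway partners of the members were read from 10 lists, 115 distinct genes in the fit. In diabetic against normoglycemic fat 9 of them were higher and 11 lower at an unadjusted p under 0.05 by limma, 17.4% beside 9.9% of all genes. In AAT-treated against diabetic fat 9 were higher and 8 lower, 14.8% beside 4.77%. In AAT-treated against normoglycemic fat 8 were higher and 3 lower, 9.57% beside 5.12%. In every comparison 0 passed an adjusted p of 0.05. Groups did not overlap for 46.1%, 37.4% and 34.8% of the 115 genes in these comparisons, in the order just given. The shares over all genes were close to these, at 44.7%, 33.8% and 32.1%. The lists were chosen with earlier results of these data known, so these shares are a description and no test of the lists. The gene values that follow are log2 differences ± SE at an unadjusted limma p under 0.05, unless said otherwise.

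Of 10 measured genes of the pyruvate dehydrogenase complex and pyruvate entry, 1 was higher and 1 lower in diabetic against normoglycemic fat at that threshold. The phosphatase regulator Pdpr differed by 1.41 ± 0.49 and the E3 subunit Dld by −1.15 ± 0.48. In the comparisons of AAT-treated fat 0 of 10 passed it. Pdpr differed by −0.97 ± 0.49 for AAT-treated against diabetic fat and the E3-binding subunit Pdhx by −0.73 ± 0.34 for AAT-treated against normoglycemic fat. The fourth kinase, Pdk3, was near the filter, at 163 and 280 in AAT-treated, 15.8 and 140 in diabetic, and 200.9 and 253 in normoglycemic fat. Its diabetic arrays were the lowest 2, and diabetic against normoglycemic fat differed by −1.10 ± 0.61.

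Of 12 measured genes of the carnitine shuttle and malonyl-CoA list, 2 were higher in diabetic against normoglycemic, 2 lower in AAT-treated against diabetic, and 1 higher in AAT-treated against normoglycemic fat. Acaca makes malonyl-CoA, which inhibits Cpt1 enzymes, and is shared with fatty acid synthesis. It read 5525 and 6682 in AAT-treated, 22561 and 25996 in diabetic, and 14869 and 5136 in normoglycemic fat, the diabetic arrays being highest. It differed by 1.46 ± 0.50 for diabetic against normoglycemic fat and by −1.98 ± 0.50 for AAT-treated against diabetic fat. Cpt1c, the brain-type paralog, differed by 1.43 ± 0.55 for diabetic against normoglycemic fat and 1.49 ± 0.55 for AAT-treated against normoglycemic fat. It was weak, at 395 and 381 in AAT-treated, 339 and 403 in diabetic, and 209 and 21.15 in normoglycemic fat. Both differences thus lean on the very low normoglycemic 2. Cpt2, the inner-membrane partner of Cpt1a, differed by −0.43 ± 0.33 for diabetic against normoglycemic fat and −0.16 ± 0.33 for AAT-treated against diabetic fat, neither at that threshold. Cpt1b was not analysed here.

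The glycerol backbone of triglyceride can also come from glycolysis through Gpd1, glycerol-3-phosphate dehydrogenase. Gpd1 read 1379 and 2085 in AAT-treated, 4928 and 7952 in diabetic, and 4288 and 2819 in normoglycemic fat, highest in diabetic fat where Pck1 was lowest. It differed by −1.84 ± 0.39 for AAT-treated against diabetic fat and −1.003 ± 0.39 for AAT-treated against normoglycemic fat. For diabetic against normoglycemic fat it differed by 0.83 ± 0.39, not past that threshold. Its mitochondrial counterpart Gpd2 differed by −1.21 ± 0.49 for AAT-treated against diabetic fat. Of the 11 measured genes of glyceroneogenesis and gluconeogenesis, 0 passed that threshold in diabetic against normoglycemic, 2 were lower in AAT-treated against diabetic, and 1 was lower in AAT-treated against normoglycemic fat.

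Among 8 measured genes of the lipoprotein lipase list, the lipase Lpl itself, which Angptl4 inhibits, read 51103 and 27132 in AAT-treated, 61149 and 100873 in diabetic, and 69009 and 74330 in normoglycemic fat. Both AAT-treated arrays were the lowest, with a difference of −1.08 ± 0.51 against diabetic fat, not past that threshold. The receptor Vldlr differed by 1.27 ± 0.44 for diabetic against normoglycemic fat and 1.92 ± 0.44 for AAT-treated against normoglycemic fat. It was the single gene of this list at that threshold in each.

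Of 13 measured PPAR receptors and coregulators, Pparg, the PPAR of fat cell identity, differed by −0.93 ± 0.37 and the receptor Esrra by 0.73 ± 0.32 for diabetic against normoglycemic fat. The coactivator Ppargc1b differed by −2.32 ± 0.73 for AAT-treated against diabetic fat, the 1 gene of the list there. It read 927 and 111 in AAT-treated and 3188 and 1343 in diabetic fat, far apart within each group. In AAT-treated against normoglycemic fat 0 of 13 passed, and Ncoa2 came nearest at 0.47 ± 0.32. The 21 measured PPAR alpha targets lay in both directions. In diabetic against normoglycemic fat 2 were higher and 2 lower, among them the peroxisomal thiolase Acaa1b at 1.48 ± 0.42, the electron transfer enzyme Etfdh at −1.21 ± 0.34 and the pantetheinase Vnn1 at −1.96 ± 0.59. In AAT-treated against diabetic fat 2 were higher and 3 lower, with Acaa1b at −1.84 ± 0.42, Acaa1a at −1.14 ± 0.36 and Etfdh at 1.12 ± 0.34. In AAT-treated against normoglycemic fat 1 was lower, the peroxisomal enzyme Ehhadh at −1.60 ± 0.66.

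Of 16 measured FoxO factors and targets, 0 were higher and 2 lower in diabetic against normoglycemic fat, 4 higher and 0 lower in AAT-treated against diabetic fat, and 3 higher and 1 lower in AAT-treated against normoglycemic fat. The ubiquitin ligase Fbxo32, a FoxO target in muscle, read 1785 and 3349 in AAT-treated, 512 and 235 in diabetic, and 732 and 940 in normoglycemic fat. Like Pdk4 its groups did not overlap. It differed by 2.57 ± 0.43 for AAT-treated against diabetic fat (limma, adjusted p = 0.389), by −1.09 ± 0.43 for diabetic against normoglycemic fat and by 1.48 ± 0.43 for AAT-treated against normoglycemic fat. The glucose-responsive Txnip, an inhibitor of glucose uptake, read 20636 and 18988 in AAT-treated, 10705 and 7235 in diabetic, and 17598 and 24017 in normoglycemic fat. Both diabetic arrays were the lowest for Txnip, with differences of −1.22 ± 0.38 against normoglycemic fat and 1.16 ± 0.38 for AAT-treated against diabetic fat. Pik3ip1, an inhibitor of PI3 kinase, differed by 1.32 ± 0.53 for AAT-treated against diabetic fat. It read 456 and 974.5 in AAT-treated and 410 and 110 in diabetic fat, so AAT-treated 1 and diabetic 1 were close. In AAT-treated against normoglycemic fat Cdkn1b, a cell cycle inhibitor, differed by 1.05 ± 0.33 and Foxo1 by 0.95 ± 0.33.

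Of 15 measured genes of the glucocorticoid and cAMP response, 1 was higher and 2 lower in diabetic against normoglycemic fat, 3 higher in AAT-treated against diabetic fat, and 2 higher in AAT-treated against normoglycemic fat. The transcription factor Cebpd differed by −1.45 ± 0.32 for diabetic against normoglycemic fat and 1.62 ± 0.32 for AAT-treated against diabetic fat. The phosphatase Dusp1 differed by −1.40 ± 0.41 for diabetic against normoglycemic fat and 1.32 ± 0.41 for AAT-treated against diabetic fat. Tsc22d3, a glucocorticoid-induced leucine zipper, differed by 1.46 ± 0.56 for AAT-treated against diabetic fat and 1.69 ± 0.56 for AAT-treated against normoglycemic fat. Zbtb16 differed by 1.10 ± 0.47 for diabetic against normoglycemic fat and 1.72 ± 0.47 for AAT-treated against normoglycemic fat.

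Of 5 measured mitochondrial carriers related to Ucp3, 2 were lower in diabetic against normoglycemic fat. These were Slc25a30 at −1.17 ± 0.30 and the ADP/ATP carrier Slc25a5 at −1.01 ± 0.41. In the comparisons of AAT-treated fat 0 of 5 passed that threshold, Slc25a30 coming nearest with 0.51 ± 0.30 against diabetic and −0.65 ± 0.30 against normoglycemic fat. Of 4 measured genes of ketone body metabolism, the monocarboxylate transporter Slc16a1 differed by 0.95 ± 0.34 and the thiolase Acat1 by −0.77 ± 0.33 for diabetic against normoglycemic fat. Slc16a1 differed by 1.41 ± 0.34 for AAT-treated against normoglycemic fat. In AAT-treated against diabetic fat 0 of 4 passed, with Bdh2 nearest at 0.86 ± 0.62.

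**Figure D4:**
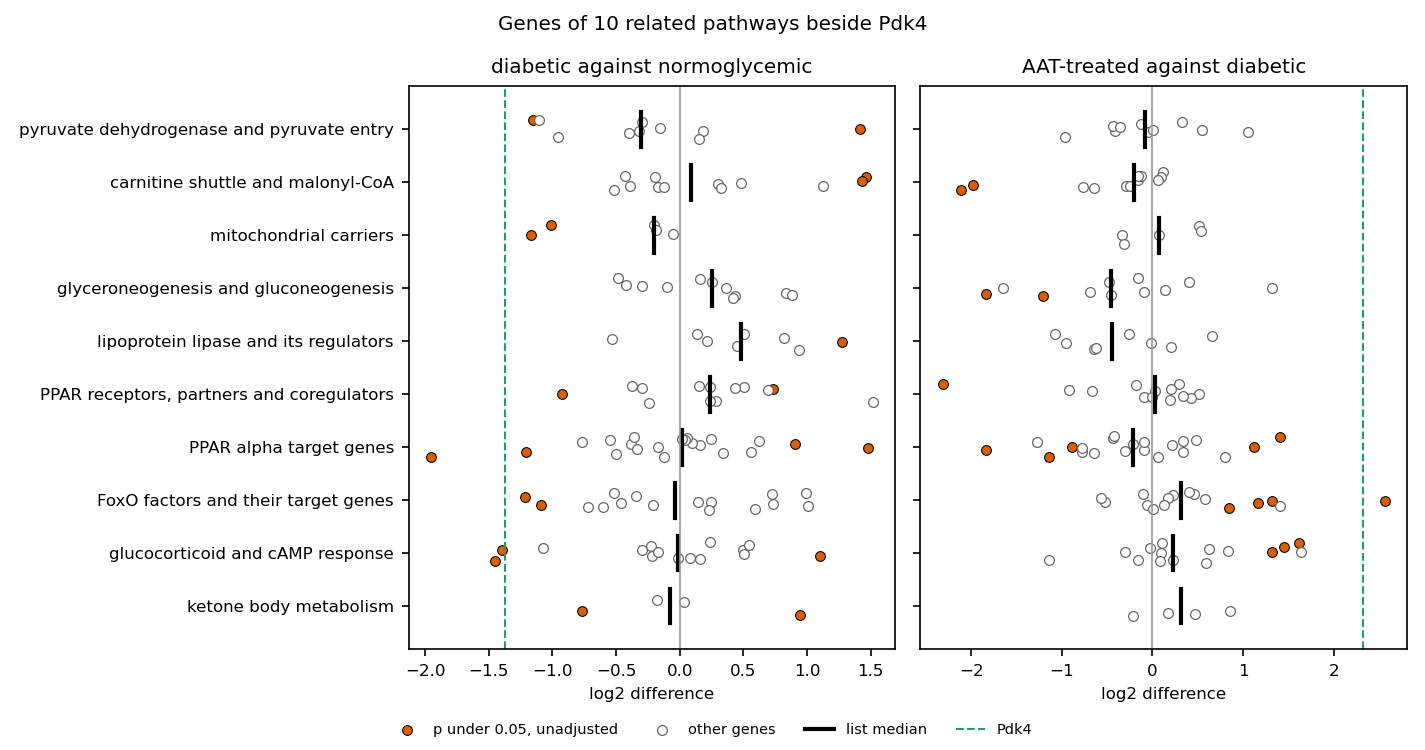
Log2 differences of the genes of 10 pathway lists, diabetic against normoglycemic on the left and AAT-treated against diabetic on the right. Each point is a gene, filled at an unadjusted limma p under 0.05, black bars are list medians, and the dashed line is Pdk4 (−1.37 on the left and 2.32 on the right). Fbxo32 of the FoxO list, at 2.57, is the gene farther right than Pdk4 for AAT-treated against diabetic fat.

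The list medians in diabetic against normoglycemic fat ran from −0.31 for the pyruvate dehydrogenase list to 0.48 for the lipoprotein lipase list, beside −0.06 over all genes. In AAT-treated against diabetic fat they ran from −0.45 for the glyceroneogenesis list to 0.32 for ketone body metabolism, with 0.31 for the FoxO list, beside 0.01 over all genes. In AAT-treated against normoglycemic fat they ran from −0.48 for the mitochondrial carriers to 0.43 for the FoxO list, beside −0.03.

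The genes whose profile over the 6 arrays was most like that of Pdk4 were found by the root mean square difference of log2(signal + 75), each gene being centred on its own mean. The 5 nearest of 13039 genes were Zfp36 (0.32), Ier2 (0.36), Cd9 (0.36), Slc45a3 (0.40) and Cebpd (0.40). Zfp36 read 3953 and 3590 in AAT-treated, 837 and 1066 in diabetic, and 3658 and 2447 in normoglycemic fat. In Zfp36, as in Pdk4, both diabetic arrays were the lowest of the 6. Pck1 ranked 186 by this measure (0.67), the nearest of the members, and Pdk2, the next of them, ranked 1974 (0.86). Angptl4 and Ucp3 were the farthest members, at 1.32 and 1.25.

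**Figure D5:**
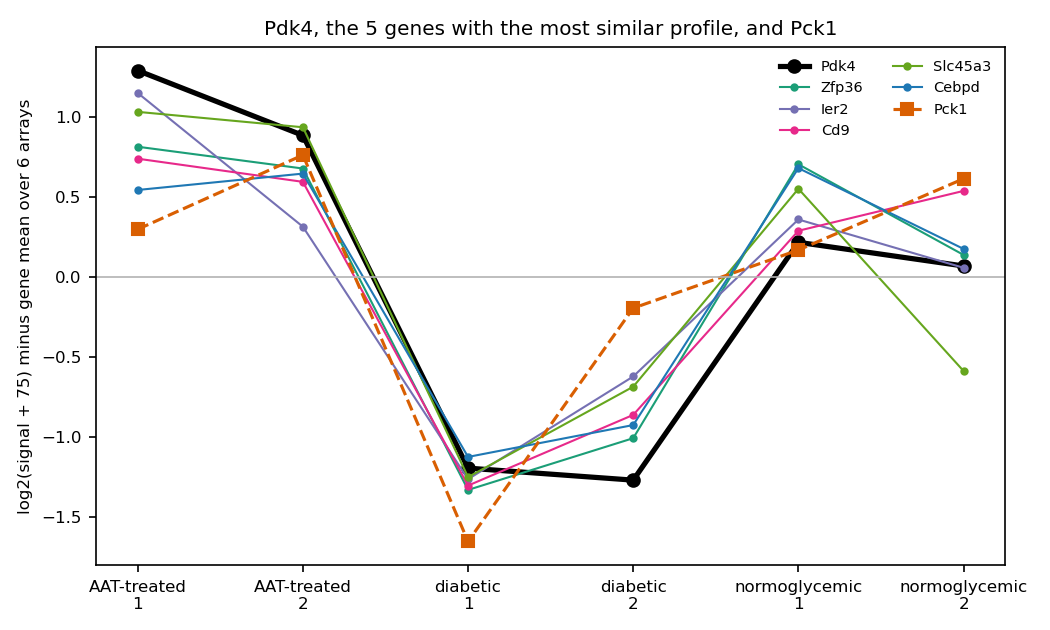
Centred log2(signal + 75) of Pdk4, the 5 genes with the most similar profile, and Pck1 on the 6 arrays. Lines join the values of a gene. All 7 genes have their 2 lowest values on the diabetic arrays.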

How the data were processed

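Fat RNA was extracted with Trizol and biotin-labelled in a single cycle, per the labels' protocols, and each of the 6 samples was hybridised to 1 array. The deposited values are MAS5 signal intensities on a linear scale, per the submitters' processing notes. The MAS5 version is not given in the sources used here, and the authors' detection calls were not used. Of 45101 probe sets 64 were controls, 34945 had 1 gene symbol, 932 several and 9160 none. RefSeq matched 34741 of those with 1 symbol, and 0 symbols changed.

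From these intensities log2(signal + 75) was computed, 75 being the 25th percentile of the non-control values. Probe sets with a mean signal above 164, the 40th percentile, were kept (27022, 13040 genes), and a gene was read from its brightest probe set. limma 3.58.1 in R 4.3.3 fitted group means over all 6 arrays (lmFit, eBayes with trend, 3 residual and 5.36 prior degrees of freedom), with two-sided tests and Benjamini-Hochberg adjustment over all genes. Probe sets of a member were also fitted among all 34945. The number of arrays limits the precision. The code was tested on simulated data.

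Named pathway genes were, per list and comparison, up to 3 with the smallest unadjusted p under 0.05 and groups that did not overlap, or else the gene with the smallest p, plus Lpl, Pparg, Pdk3, Cpt1b and Cpt2, and the 5 genes nearest to Pdk4. The members and lists were chosen with earlier results of these data known. Promoter windows were searched for the printed letters on both strands. Alternatives were pseudocounts of 16 and 200, no filter, quantile normalization, the mean of kept probe sets, eBayes without trend or robust, a hybridisation-control covariate, the replicate number as a block, only the 4 arrays compared, and each array left out.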

Additional observations from a re-analysis of the deposited data

How the results depend on the processing

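Both tallies of direction given here include differences that could not reverse, so they overstate stability. No filter, eBayes without trend or robust, the replicate block and fitting only the arrays compared left the member differences unchanged. Leaving out an array of the group outside a comparison did the same. Under the 10 settings that kept both arrays of each group compared, 231 of 240 member differences kept their direction and 9 reversed. Under the 6 settings that left out an array 129 of 144 kept it and 15 reversed. No member reached an adjusted limma p of 0.05 under any of them. With the hybridisation-control covariate, diabetic against normoglycemic fat gave 695 genes at an unadjusted p under 0.05, not 1291, Angptl4 at −1.13 and Cpt1a at −0.018, and AAT-treated against diabetic fat gave Angptl4 at 0.083. With quantile normalization the diabetic against normoglycemic difference was −0.015 for Pdk2 and −0.080 for Angptl4. With the mean of kept probe sets Pdk1 was 0.14 for diabetic against normoglycemic fat, and for AAT-treated against diabetic fat Pdk1 was −0.62, Cpt1a −0.017 and Ppara 0.10. Without the filter 1 gene, Anp32a, passed in AAT-treated against diabetic fat (limma, adjusted p = 0.0417). The cause of these shifts was not tested.

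With each array left out in turn, genes at an unadjusted p under 0.05 numbered 554 to 1941 for diabetic against normoglycemic, 260 to 1267 for AAT-treated against diabetic and 279 to 1512 for AAT-treated against normoglycemic fat. Genes at an adjusted p under 0.05 numbered 0 to 3 in the last comparison, where Ephx1, Myh11 and Phf3 passed without normoglycemic 2 (limma, adjusted p = 0.0483). For diabetic against normoglycemic fat the differences ran from −0.84 to 0.025 for Pdk1, −0.28 to 0.39 for Pdk2, −0.93 to 0.98 for Angptl4 and −0.19 to 0.89 for Cpt1a. For AAT-treated against diabetic fat they ran from −0.32 to 0.51 for Pdk1 and −1.31 to 0.70 for Angptl4. For AAT-treated against normoglycemic fat they ran from −0.75 to 0.12 for Pdk1, −1.29 to 0.73 for Angptl4 and −0.093 to 0.37 for Pck1.

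With the replicate number as a block, 895 genes had an unadjusted p under 0.05 for diabetic against normoglycemic fat, 452 for AAT-treated against diabetic fat and 502 for AAT-treated against normoglycemic fat, 0 had an adjusted one by limma, and each Pdk4 difference stayed past an unadjusted p of 0.05. Deviations of same-numbered arrays correlated at −0.116 for AAT-treated and diabetic, −0.506 for AAT-treated and normoglycemic and 0.0752 for diabetic and normoglycemic arrays. Same-numbered arrays thus showed no clear positive correlation. The value of −0.506 means that AAT-treated and normoglycemic arrays of different number tended to deviate in the same direction. The arrays with the brightest hybridisation controls form such a pair. The cause of this shared deviation was not tested.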
